A study of Mus musculus with 36 samples.

Results

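Type I interferon-stimulated genes are the antiviral and regulatory genes that cells switch on after interferon alpha or beta binds its receptor. A list of 35 such genes was followed through 36 arrays of mouse distal colon, and 33 of the 35 had a probe set annotated to that gene alone. They stand among 19938 genes measured by such probe sets and 28853 probe sets in all. Where a gene had several probe sets, the one with the highest mean over the 36 arrays was used. Isg15 shared its only probe set with another gene and Ifi44 had none listed, so neither has a value here.

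Interferon alpha and beta signal through a receptor made of Ifnar1 and Ifnar2, whose kinases activate a complex that holds Stat2 and Irf9. That complex enters the nucleus and binds a short promoter motif, the interferon-stimulated response element, in front of its target genes. The products bind foreign RNA, block viral replication, tag proteins with the ubiquitin-like protein Isg15, or feed back on the pathway, and RNA that a cell takes up is a known trigger of it.

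The study asked how short interfering RNAs (siRNAs) against the inflammatory cytokine tumour necrosis factor (TNF), in several chemical forms, act in a colitis model. All 36 animals carry the label 5% DSS, dextran sodium sulfate, a detergent-like polymer that injures the colon lining when given to mice. The groups were siTNF-OMe-P, dosed into the rectum with TNF siRNA carrying O-methyl-propanediol nucleotides (8 arrays), siTNF-OMe, with O-methyl nucleotides (6 arrays), siTNF, unmodified (6 arrays), scrambled, a non-targeting siRNA (7 arrays), and Control (9 arrays). Strain, age and sex are not given in the labels used here. The labels do not say what the Control animals received, so the siRNA dose and any other difference between Control and dosed animals cannot be told apart. Each array is labelled as a separate replicate, with its own colon measurements, and the number of arrays limits the precision. Because whole colon was measured, fewer cells of a type and less RNA per cell cannot be told apart.

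Values are log2 signals, so a difference of 1 is a doubling. Array signals ran from 4.95 to 14.1 on that scale, and the SD over probe sets ran from 1.55 to 1.89 per array. This SD was below 1.7 in 2 siTNF-OMe-P, 0 siTNF-OMe, 1 siTNF, 1 scrambled and 4 Control arrays. Myeloperoxidase (MPO) activity, an enzyme measure of neutrophils, was 0.031 to 0.815 U per mg in siTNF-OMe-P, 0.217 to 1.16 in siTNF-OMe, 0.057 to 0.703 in siTNF, 0.238 to 1.35 in scrambled and 0.009 to 0.088 in Control colons. Tnf, the targeted gene, had median log2 signals of 8.70 in siTNF-OMe-P, 8.80 in siTNF-OMe, 9.17 in siTNF and 8.67 in scrambled colons, against 7.91 in Control colons. Its difference from scrambled was -0.23 for siTNF-OMe-P, -0.12 for siTNF-OMe and 0.19 for siTNF, and none passed the test (limma adjusted p of at least 0.9998). The mean of 8 epithelial markers, among them Epcam, Cdh1 and Muc2, had a median log2 signal of at least 11.99 in each group, so the labelled colon tissue carried its markers.

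RefSeq promoter windows of 300 bases (build GRCm38.p6) were matched to 24 of the 33 genes, giving 29 windows since some genes have several starts. The core of the response element, taken as 2 GAAA blocks with any 2 bases between them on either strand, occurred in 10 of the 29 windows (34.5%), those of 9 genes. In all 32851 windows of the same length its share was 3.44%. The core of the gamma-activated site, TTCNNNGAA on both strands, occurred in 6 of the 29 windows (20.7%), against 8.3% of all windows. Both motifs were found in 3 windows. A match describes letters in a window and does not show binding. The 250 bases before the start site are printed for 4 genes whose values are given below and that hold the first motif, with its letters in capitals, 5′ to 3′ on the gene's strand.
Bst2: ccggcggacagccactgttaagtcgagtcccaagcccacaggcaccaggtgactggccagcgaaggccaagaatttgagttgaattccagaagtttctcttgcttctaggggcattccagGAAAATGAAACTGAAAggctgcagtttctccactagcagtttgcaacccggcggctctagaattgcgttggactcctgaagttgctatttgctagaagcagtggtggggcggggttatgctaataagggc
Ifit3: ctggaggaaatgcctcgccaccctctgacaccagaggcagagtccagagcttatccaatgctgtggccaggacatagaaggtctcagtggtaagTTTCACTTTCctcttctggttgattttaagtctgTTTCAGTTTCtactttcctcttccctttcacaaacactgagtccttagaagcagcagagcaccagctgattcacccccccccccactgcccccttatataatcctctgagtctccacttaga
Oas1a: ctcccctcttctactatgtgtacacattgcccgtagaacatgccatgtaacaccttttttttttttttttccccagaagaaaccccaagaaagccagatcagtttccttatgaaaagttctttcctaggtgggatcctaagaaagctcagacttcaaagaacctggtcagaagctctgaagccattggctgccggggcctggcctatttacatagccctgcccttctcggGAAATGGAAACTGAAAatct
Stat2: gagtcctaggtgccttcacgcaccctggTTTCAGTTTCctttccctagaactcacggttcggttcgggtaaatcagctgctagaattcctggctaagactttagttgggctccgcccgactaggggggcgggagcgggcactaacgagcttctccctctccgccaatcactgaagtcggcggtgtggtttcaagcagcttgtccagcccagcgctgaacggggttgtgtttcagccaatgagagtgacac
The Bst2 region is chr8:71537473-71537722 on the minus strand, and its overlapping matches begin at -130 and -124 from the start site. The Bst2 window also holds the second motif. Ifit3 lies at chr19:34583279-34583528 on the plus strand, with matches on the opposite strand at -156 and -122. Oas1a lies at chr5:120907526-120907775 on the minus strand, with overlapping matches at -20 and -14, and its window also holds the second motif. The Stat2 region is chr10:128270248-128270497 on the plus strand, with 1 match on the opposite strand at -222.

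Compared with Control colon, the interferon-stimulated genes were higher in every group that had received an siRNA. Tested over all probe sets (limma, adjusted p under 0.05), 21 of the 33 rose and 0 fell in siTNF-OMe-P colons, 24 rose and 0 fell in siTNF-OMe, 23 rose and 0 fell in siTNF, and 30 rose and 0 fell in scrambled colons. Of all probe sets, 9.35% were called higher and 6.58% lower in siTNF-OMe-P, 9.01% and 5.81% in siTNF-OMe, 9.09% and 4.71% in siTNF, and 7.27% and 4.45% in scrambled colons. The median log2 difference of the 33 genes was 0.54 for siTNF-OMe-P, 0.67 for siTNF-OMe, 0.69 for siTNF and 0.86 for scrambled, while that of all probe sets lay between -0.05 and -0.03. All 33 differences were positive in each comparison, where 41.1%, 36.5%, 38.6% and 41.3% of all probe sets were. Without the 8 arrays of SD below 1.7, 22, 25, 28 and 31 of the 33 genes rose in siTNF-OMe-P, siTNF-OMe, siTNF and scrambled colons, while 7532, 8618, 2487 and 8085 of the 28853 probe sets did. These 4 comparisons share the 9 Control arrays, so they are not independent of each other. By gene, 20 were called in all 4 comparisons, 2 in 3, 3 in 2 and 6 in 1, and Mx2 and Eif2ak2 were called in none. Some of these calls were lost under other settings or without a single array, as given below for Xaf1, Usp18, Trim25, Parp12, Parp14 and Irf1.

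**Figure D1:**
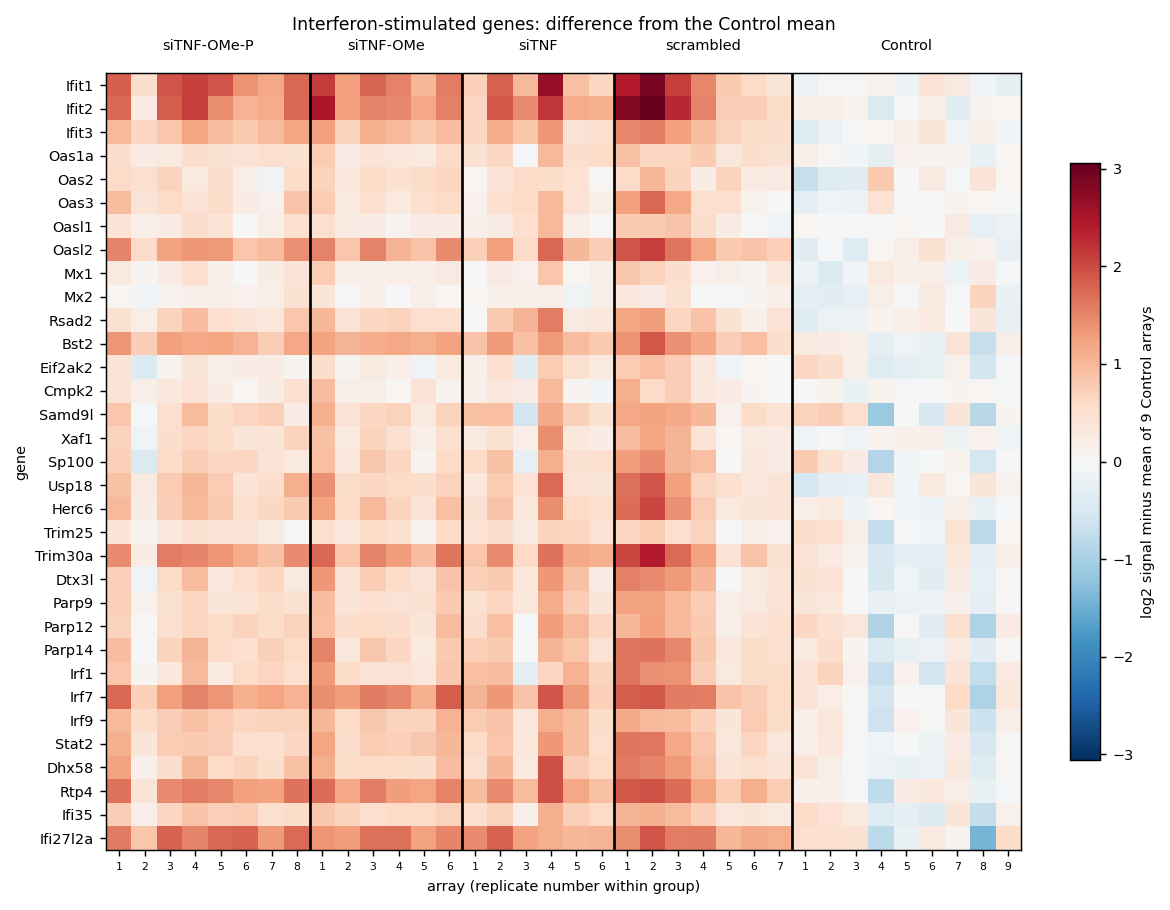
Each row is a gene and each column an array, grouped from siTNF-OMe-P on the left to Control on the right, and colour gives the log2 signal minus the mean of the 9 Control arrays. Ifit1, Ifit2, Oasl2, Bst2, Trim30a, Irf7, Rtp4 and Ifi27l2a form the strongest red rows in the 27 siRNA-dosed arrays, and Mx2 is pale in nearly all arrays.

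The mean log2 signal of the 33 genes had a lowest, median and highest value of 8.91, 9.44 and 9.62 in siTNF-OMe-P, 9.24, 9.43 and 9.81 in siTNF-OMe, 9.08, 9.29 and 9.96 in siTNF and 9.07, 9.51 and 10.2 in scrambled, against 8.40, 8.70 and 8.86 in Control colons. Every one of the 27 siRNA-dosed arrays was above the highest Control array. In the lowest of them, siTNF-OMe-P replicate 2, 12 of the 33 genes were above their highest Control value, and in scrambled replicate 2 it was 32. Scrambled arrays fell into a high and a low set by labelled amplification batch: the 4 arrays of batches 1 and 2 had means of 9.51 to 10.2 and the 3 of batch 3 had 9.07 to 9.15. The same split was not seen in the Control arrays, whose batch 3 means ran from 8.40 to 8.86. MPO activity differed between those scrambled arrays: 0.298 to 1.35 U per mg in batches 1 and 2 and 0.238 to 0.393 in batch 3. Array SD did as well, at 1.765 to 1.81 in batches 1 and 2 and 1.687 to 1.741 in batch 3. The part of batch, of MPO activity and of array spread in the split was not tested.

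**Figure D2:**
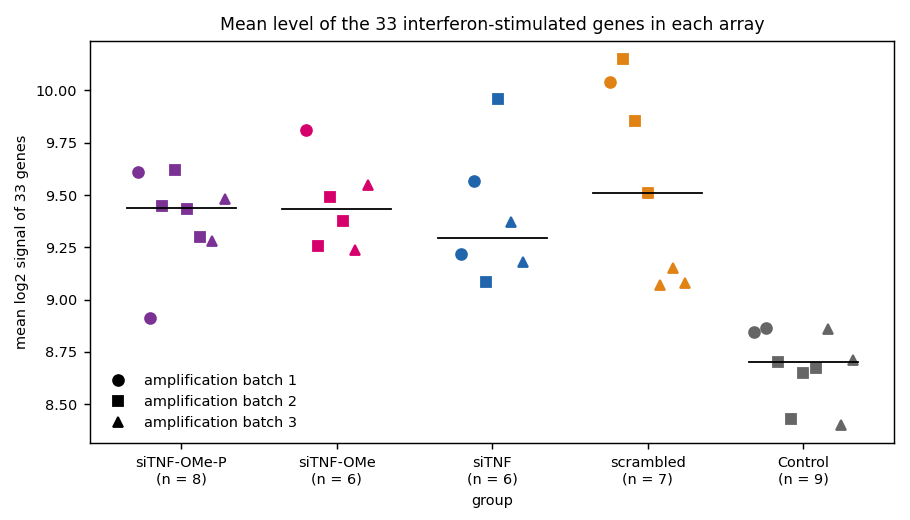
The vertical axis is the mean log2 signal of the 33 genes, each point is 1 array with its shape giving the amplification batch, and the line is the group median. The siRNA-dosed arrays lie between 8.91 and 10.2 and the Control arrays between 8.40 and 8.86, and the 3 scrambled arrays of batch 3 lie below the other 4.

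The Ifit proteins bind foreign RNA and hinder its translation, and all 3 measured members rose in each of the 4 comparisons. Ifit3 read 10.68, 11.01 and 11.26 in siTNF-OMe-P (lowest, median and highest array), 10.74, 11.02 and 11.31 in siTNF-OMe, 10.50, 10.80 and 11.39 in siTNF and 10.59, 11.00 and 11.63 in scrambled, against 9.67, 10.07 and 10.42 in Control colons. No dosed array of any group fell to the highest Control value. Ifit3 was higher by 0.92, 0.96, 0.83 and 1.02 on the log2 scale in siTNF-OMe-P, siTNF-OMe, siTNF and scrambled colons, with standard errors of 0.13 to 0.14 and limma adjusted p of 6.29e-05 at most. Ifit2 read 8.54, 9.88 and 10.39 in siTNF-OMe-P, 9.48, 9.78 and 10.78 in siTNF-OMe, 8.92, 9.58 and 10.48 in siTNF and 8.86, 9.79 and 11.34 in scrambled, against 7.85, 8.37 and 8.50 in Control colons. The dosed groups spread far more widely than Control, but again without overlap. Its difference of 1.73 ± 0.29 (SE) in scrambled colons, a 3.31-fold change, was the widest of the 33, and the other groups gave 1.38, 1.57 and 1.39 in siTNF-OMe-P, siTNF-OMe and siTNF. Ifit1 gave 1.53, 1.53, 1.31 and 1.57 in the same order of groups, scrambled last.

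The oligoadenylate synthetases make short adenylate chains that activate the nuclease RNase L. Of the 5 measured, 3 rose in siTNF-OMe-P, 3 in siTNF-OMe, 2 in siTNF and 5 in scrambled colons. Oasl2, a related family member, read 9.43, 10.10 and 10.35 in siTNF-OMe-P, 9.68, 10.08 and 10.36 in siTNF-OMe, 9.43, 9.73 and 10.59 in siTNF and 9.56, 10.04 and 10.95 in scrambled, against 8.44, 8.90 and 9.32 in Control colons. All dosed arrays were above all Control arrays. It rose by 1.12, 1.20, 1.02 and 1.34 in siTNF-OMe-P, siTNF-OMe, siTNF and scrambled (adjusted p from 5.3e-06 to 0.000366). Oas1a read 9.79, 10.00 and 10.09 in siTNF-OMe-P, 9.79, 9.91 and 10.31 in siTNF-OMe, 9.51, 10.12 and 10.52 in siTNF and 9.88, 10.17 and 10.43 in scrambled, against 9.25, 9.60 and 9.70 in Control colons. Only the siTNF group overlapped with Control. The rises were smaller than for Oasl2, at 0.42, 0.46, 0.53 and 0.63. Oasl1 passed in scrambled alone (0.46, adjusted p = 0.00762) and gave 0.30, 0.26 and 0.36 in siTNF-OMe-P, siTNF-OMe and siTNF, but it did not pass between any of those groups and scrambled.

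Other antiviral effectors were the least uniform set: 3 of 9 rose in siTNF-OMe-P, 3 in siTNF-OMe, 3 in siTNF and 7 in scrambled colons. Bst2, or tetherin, which holds budding virus at the cell surface, read 10.58, 11.01 and 11.19 in siTNF-OMe-P, 10.87, 10.98 and 11.06 in siTNF-OMe, 10.64, 10.77 and 11.15 in siTNF and 10.38, 11.00 and 11.73 in scrambled, against 9.14, 10.02 and 10.24 in Control colons. The groups did not overlap. Bst2 had the smallest adjusted p of the 33 genes in every comparison with Control, with rises of 1.07, 1.14, 1.02 and 1.17 and adjusted p of 7.95e-07, 1.12e-06, 1.04e-05 and 5.47e-07. Rsad2, or viperin, which blocks the replication of several viruses, read 8.11, 8.41 and 8.85 in siTNF-OMe-P, 8.36, 8.49 and 8.92 in siTNF-OMe, 7.90, 8.48 and 9.46 in siTNF and 8.06, 8.57 and 9.19 in scrambled, against 7.54, 7.90 and 8.29 in Control colons. Only its siTNF-OMe arrays were all above Control. It rose by 0.53, 0.62, 0.69 and 0.74.

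Eif2ak2, the kinase PKR that double-stranded RNA activates, read 7.72, 8.34 and 8.57 in siTNF-OMe-P, 8.03, 8.37 and 8.68 in siTNF-OMe, 7.81, 8.54 and 8.92 in siTNF and 8.05, 8.45 and 9.06 in scrambled, against 7.58, 8.08 and 8.79 in Control colons. All groups overlapped with Control. Its differences of 0.13, 0.22, 0.29 and 0.42 did not pass the test (adjusted p = 0.752, 0.505, 0.322 and 0.106), and for siTNF-OMe-P and siTNF-OMe they turned to -0.06 and -0.07 without the 8 arrays of narrow spread. Mx2, a dynamin-like antiviral GTPase, read 6.25, 6.48 and 6.79 in siTNF-OMe-P, 6.33, 6.46 and 6.70 in siTNF-OMe, 6.20, 6.50 and 6.54 in siTNF and 6.29, 6.49 and 6.81 in scrambled, against 6.00, 6.29 and 7.03 in Control colons. All groups overlapped with Control, and its differences of 0.12 to 0.17 passed in no group. The highest Control values of Mx2, 7.03, 6.62 and 6.51, came from replicates 8, 6 and 4, with array SDs of 1.565, 1.647 and 1.549. Control arrays with an SD of at least 1.7 read 6.00 to 6.29 for Mx2. Mx1, a relative of Mx2, passed in scrambled alone (0.41, limma adjusted p = 0.0224). Cmpk2, a mitochondrial nucleotide kinase, Samd9l and the nuclear body protein Sp100 likewise passed in scrambled alone, at 0.47, 0.86 and 0.80. Group means in siTNF-OMe-P, siTNF-OMe and siTNF were above Control too, at 7.43, 7.46 and 7.43 against 7.14 for Cmpk2. For Samd9l they were 9.88, 9.98 and 9.93 against 9.33, and for Sp100 9.22, 9.34 and 9.33 against 8.78. Neither these genes nor Mx1 passed between any TNF siRNA group and scrambled. Xaf1, linked to cell death, rose in all 4 comparisons, by 0.44, 0.50, 0.50 and 0.62. Its calls in all 3 TNF siRNA groups were lost with the replicate number as a block. The siTNF-OMe-P call was also lost with median centring. Leaving out Control replicate 1, 2, 3 or 5, or siTNF-OMe-P replicate 1, 3, 4, 5, 7 or 8, lost that call too. The siTNF call was lost with hybridization batch as the only batch term and with only the groups compared.

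Genes of the Isg15 and ubiquitin branch rose in 3, 4, 5 and 4 of 5 cases in siTNF-OMe-P, siTNF-OMe, siTNF and scrambled colons. Trim30a, a mouse ubiquitin ligase that restrains innate signalling, read 8.64, 9.81 and 9.98 in siTNF-OMe-P, 9.25, 9.81 and 10.17 in siTNF-OMe, 9.03, 9.53 and 10.06 in siTNF and 8.84, 9.64 and 10.83 in scrambled, against 7.94, 8.51 and 8.84 in Control colons. The siTNF-OMe-P and scrambled groups reached into the Control range and the others did not. Trim30a rose by 1.18, 1.33, 1.12 and 1.34. Herc6, the ligase that attaches Isg15 in mouse, read 7.52, 8.06 and 8.28 in siTNF-OMe-P, 7.69, 8.09 and 8.53 in siTNF-OMe, 7.61, 7.85 and 8.70 in siTNF and 7.59, 8.07 and 9.34 in scrambled, against 7.07, 7.22 and 7.59 in Control colons. The siTNF-OMe and siTNF arrays were all above Control. Its rises were 0.69, 0.81, 0.69 and 1.04. Usp18, which removes Isg15 and damps the interferon receptor, rose by 0.71, 0.72, 0.69 and 0.98. Its siTNF call was lost with array weights. Leaving out Control replicate 1, 2, 3 or 5, or siTNF replicate 2 or 4, lost it as well. Trim25, a ligase that acts on the RNA sensor Ddx58, read 9.90, 10.23 and 10.33 in siTNF-OMe-P, 9.94, 10.35 and 10.47 in siTNF-OMe, 10.14, 10.35 and 10.56 in siTNF and 9.87, 10.37 and 10.65 in scrambled, against 9.06, 9.92 and 10.40 in Control colons. It passed only in siTNF (0.49, limma adjusted p = 0.0306) and missed narrowly in scrambled (0.44, limma adjusted p = 0.0509). The siTNF call was lost without the narrow arrays, with median centring, with array weights and with the replicate number as a block. It was lost too with only the groups compared. Leaving out siTNF replicate 4, 5 or 6, or Control replicate 4, 6 or 8, also lost it, while quantile normalization and array SD as a covariate kept it.

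The Parp family is known for attaching ADP-ribose to proteins, and Parp9 works as a pair with the ubiquitin ligase Dtx3l. Parp9 read 8.59, 8.94 and 9.20 in siTNF-OMe-P, 8.86, 8.96 and 9.42 in siTNF-OMe, 8.80, 9.03 and 9.59 in siTNF and 8.64, 9.24 and 9.70 in scrambled, against 8.18, 8.46 and 8.84 in Control colons. It rose by 0.46, 0.60, 0.59 and 0.75, and its siTNF-OMe arrays alone cleared the Control range. Parp14 read 8.93, 9.58 and 9.99 in siTNF-OMe-P, 9.24, 9.67 and 10.45 in siTNF-OMe, 8.94, 9.70 and 9.99 in siTNF and 9.27, 9.76 and 10.60 in scrambled, against 8.51, 8.99 and 9.48 in Control colons. All 4 dosed groups overlapped with Control, and the rises were 0.62, 0.75, 0.60 and 1.03. The siTNF call of Parp14 was lost with median centring, with array weights, with the replicate number as a block and with only the groups compared. Leaving out Control replicate 1, 4, 5, 6 or 8, or siTNF replicate 2, 4, 5 or 6, lost it as well. Parp12 and Dtx3l passed in every comparison but that of siTNF-OMe-P, where they gave 0.54 (adjusted p = 0.0625) and 0.47 (adjusted p = 0.0835). The siTNF and siTNF-OMe calls of Parp12 were both lost with median centring and with array weights.

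Transcription factors of the pathway rose in 3 of 4 cases in siTNF-OMe-P, 4 of 4 in siTNF-OMe, 3 of 4 in siTNF and 4 of 4 in scrambled colons. Irf7, which drives the interferon alpha genes, read 10.34, 10.85 and 11.37 in siTNF-OMe-P, 10.71, 11.06 and 11.47 in siTNF-OMe, 10.35, 10.78 and 11.54 in siTNF and 10.23, 11.17 and 11.51 in scrambled, against 8.68, 9.64 and 10.21 in Control colons. No group overlapped with Control, and the rises were 1.23, 1.45, 1.19 and 1.33. Stat2 read 9.38, 9.70 and 10.09 in siTNF-OMe-P, 9.56, 9.80 and 10.22 in siTNF-OMe, 9.32, 9.72 and 10.32 in siTNF and 9.36, 9.85 and 10.65 in scrambled, against 8.52, 9.02 and 9.35 in Control colons. It overlapped with Control in the siTNF group only and rose by 0.67, 0.85, 0.73 and 0.98. Irf9, its partner, rose by 0.74, 0.82, 0.74 and 0.81. Irf1, a factor that interferon gamma and TNF also induce, passed in siTNF-OMe (0.67) and scrambled (0.97) and gave 0.53 (adjusted p = 0.0665) in siTNF-OMe-P and 0.60 (adjusted p = 0.0568) in siTNF. A second Irf1 probe set differed from Control by less, with differences between group means of 0.13, 0.23, 0.32 and 0.47, against 0.54, 0.65, 0.66 and 0.93 for the one used. The siTNF-OMe call of Irf1 was lost with the mean of its probe sets. It was also lost without batch terms and with hybridization batch as the only batch term. Leaving out the narrow arrays, median centring, array weights and the replicate number as a block each lost it too. So did leaving out Control replicate 4, 6 or 8, or siTNF-OMe replicate 1 or 6.

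The RNA sensor Dhx58 (LGP2) and 3 further genes passed in all 4 comparisons. Rtp4, a negative regulator of innate signalling in mouse, read 10.06, 11.13 and 11.32 in siTNF-OMe-P, 10.85, 11.06 and 11.37 in siTNF-OMe, 10.56, 10.74 and 11.64 in siTNF and 10.43, 10.87 and 11.61 in scrambled, against 8.88, 9.83 and 9.99 in Control colons. Every dosed array was above every Control array, although siTNF-OMe-P replicate 2, at 10.06, came close to the highest Control array. Rtp4 rose by 1.31, 1.41, 1.25 and 1.36. Ifi27l2a, a small interferon-induced protein, read 11.63, 12.45 and 12.60 in siTNF-OMe-P, 12.04, 12.21 and 12.47 in siTNF-OMe, 11.80, 11.96 and 12.60 in siTNF and 11.80, 12.22 and 12.73 in scrambled, against 9.39, 11.08 and 11.35 in Control colons. It did not overlap with Control in any group and rose by 1.51, 1.45, 1.27 and 1.43. Dhx58 rose by 0.69, 0.72, 0.83 and 0.97, and Ifi35 by 0.62, 0.65, 0.61 and 0.71.

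Counting groups that did not overlap, 11 of the 33 genes had every siTNF-OMe-P array above every Control array, 18 every siTNF-OMe array, 11 every siTNF array and 10 every scrambled array. The same held for 2.5%, 4.56%, 2.29% and 1.82% of all probe sets. Ifit2, Ifit3, Oasl2, Bst2, Irf7, Rtp4 and Ifi27l2a were among them in each of the 4 comparisons.

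**Figure D3:**
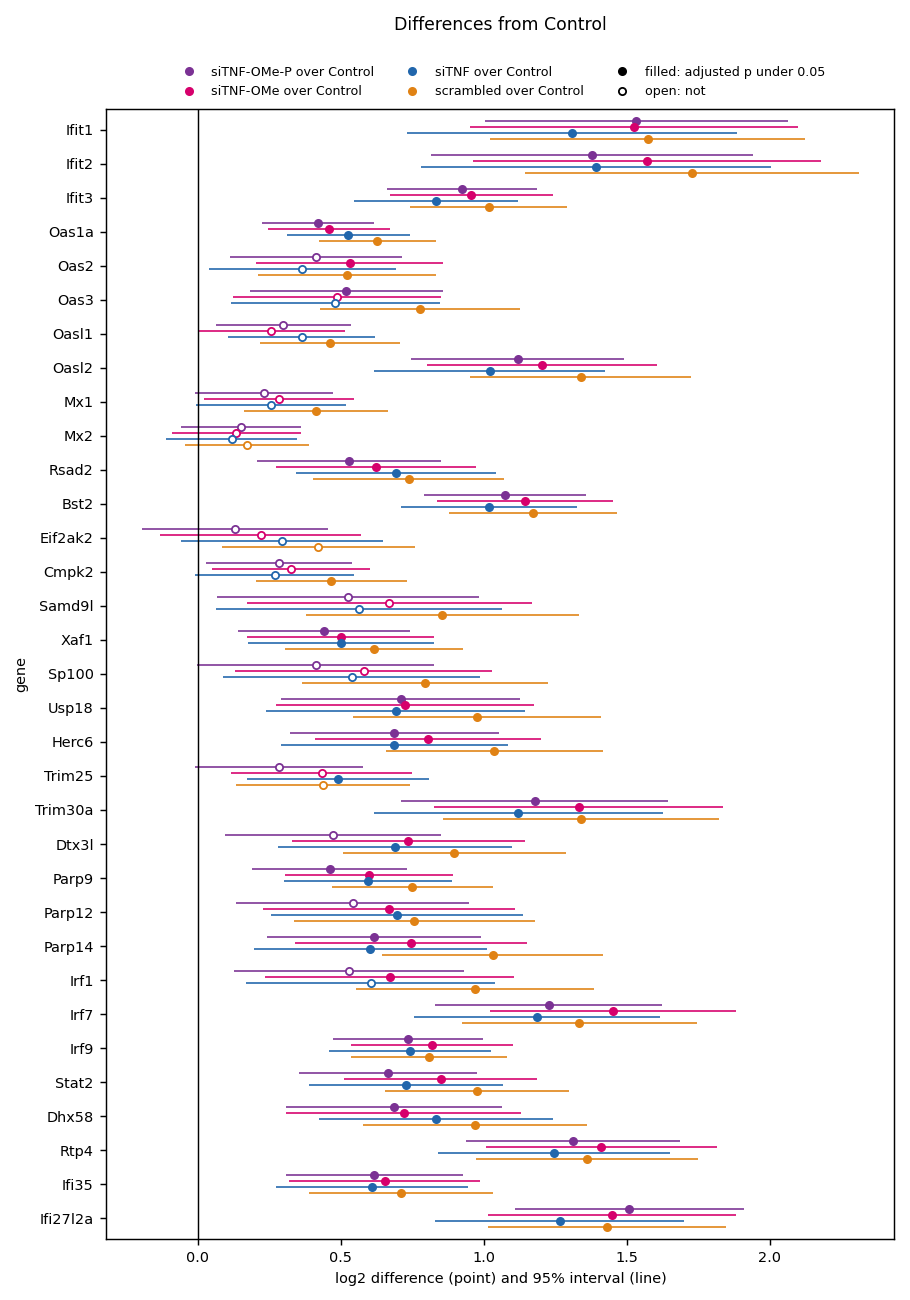
For each gene, points give the log2 difference from Control with its 95% interval for siTNF-OMe-P, siTNF-OMe, siTNF and scrambled colons, from top to bottom, and filled points passed an adjusted p of 0.05. All points lie to the right of 0, from 0.12 for Mx2 to 1.73 for Ifit2.

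The labelled batches were then set apart. Within hybridization batch 1 the median difference of the 33 genes from Control was 0.60, 0.62, 0.42 and 0.97 in siTNF-OMe-P, siTNF-OMe, siTNF and scrambled colons, and within batch 2 it was 0.52, 0.73, 0.89 and 0.77. Within amplification batches 1, 2 and 3 it was 0.40, 0.78 and 0.62 in siTNF-OMe-P, 0.89, 0.75 and 0.62 in siTNF-OMe, 0.45, 0.84 and 0.64 in siTNF and 1.07, 1.21 and 0.44 in scrambled colons. Each batch holds 1 to 5 arrays per group, and amplification batch 1 holds only 1 siTNF-OMe and 1 scrambled array, so its values for these groups have no replicate check. For scrambled colons 30 and 0 genes passed in amplification batches 2 and 3, where 7.31% and 0.114% of probe sets were called higher. The differences were positive for 25 to 33 of the 33 genes in every batch, the 25 being those of siTNF-OMe-P in amplification batch 1. In that batch Eif2ak2, Samd9l and Sp100 had differences of -0.59, -0.34 and -0.50.

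Between the TNF siRNAs and the scrambled siRNA, 0 of the 33 genes passed in any comparison (limma), and 0 of the 28853 probe sets did (0%). For siTNF-OMe-P over scrambled the median difference was -0.21, with 32 of 33 genes negative, where 52.8% of all probe sets were positive. Of all probe sets, 2.9% had an unadjusted p under 0.05, in either direction. That level was reached by 3 of the 33 genes: Dtx3l at -0.42 (95% interval -0.83 to -0.02), Parp14 at -0.42 (-0.82 to -0.01) and Irf1 at -0.44 (-0.87 to -0.01). Each had a limma adjusted p of 0.9998, with 7 of 8 siTNF-OMe-P arrays below the scrambled mean, as were 3, 4 and 4 of the 7 scrambled arrays for Dtx3l, Parp14 and Irf1. For siTNF-OMe over scrambled the median was -0.13, with 28 negative and 0 at an unadjusted p under 0.05. Within amplification batches 2 and 3 it was -0.48 and 0.28, with 0 and 33 genes positive. For siTNF over scrambled the median was -0.16, with 32 negative and 0 at an unadjusted p under 0.05. This median was -0.49 within hybridization batch 1, with 0 of 33 genes positive, and 0.19 within batch 2, with 29 positive. Within amplification batches 2 and 3 it was -0.31 and 0.17, with 4 and 26 positive.

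The mean of the 3 TNF siRNA groups over scrambled gave negative differences for all 33 genes, with a median of -0.16 and a range of -0.38 to -0.02. Of all probe sets, 1.82% had an unadjusted p under 0.05, in either direction. Parp14 at -0.38 and Irf1 at -0.37 had an unadjusted p under 0.05 and a limma adjusted p of 1, with 17 of 20 TNF siRNA arrays below the scrambled mean for each, as were 4 of the 7 scrambled arrays. These comparisons share the 7 scrambled arrays, and the genes move together within groups, so 33 signs are not 33 observations. The direction changed with the batch. The median was -0.33 in hybridization batch 1 and 0.05 in batch 2, with 0 and 22 of the 33 differences positive. In amplification batch 2 it was -0.415 and in batch 3 it was 0.23, where 32 of the 33 were positive, and it was -0.52 in batch 1 against a single scrambled array. Batch 3 holds the 3 low scrambled arrays. For siTNF-OMe-P over scrambled the medians in amplification batches 1, 2 and 3 were -0.72, -0.40 and 0.25, the first again against 1 array. The 95% intervals of single genes were wide, with a median half-width of 0.36 for siTNF-OMe-P over scrambled, and the outermost bounds over the 33 genes were -0.95 and 0.53.

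The chemical forms were compared directly. The labels name the change in siTNF-OMe as O-methyl nucleotides and that in siTNF-OMe-P as O-methyl-propanediol nucleotides, both relative to unmodified siTNF. In the 3 pairs 0 of 33 genes passed (limma), 0 had an unadjusted p under 0.05, and 0 of 28853 probe sets passed. The median difference was -0.01 for siTNF-OMe-P over siTNF, 0.06 for siTNF-OMe over siTNF and -0.09 for siTNF-OMe-P over siTNF-OMe. These medians pool batches that differed in sign. Within hybridization batches 1 and 2, siTNF-OMe-P over siTNF was 0.18 and -0.30, with 31 and 2 genes positive, and siTNF-OMe over siTNF was 0.20 and -0.16, with 32 and 6 positive. For siTNF-OMe-P over siTNF-OMe the median was 0.02 and -0.13 in those batches, and in amplification batches 1, 2 and 3 it was -0.47, 0.06 and 0.02, the first against 1 siTNF-OMe array. Within batches 0 of the 33 genes passed in these pairs. The 95% intervals reached from -0.64 to 0.82, from -0.57 to 0.85 and from -0.82 to 0.60 over the 33 genes, with median half-widths of 0.38, 0.40 and 0.37. Differences inside these intervals were not detectable with these arrays, and the result does not show that the forms act alike. For Bst2, siTNF-OMe over siTNF was 0.13 with an interval from -0.21 to 0.47.

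**Figure D4:**
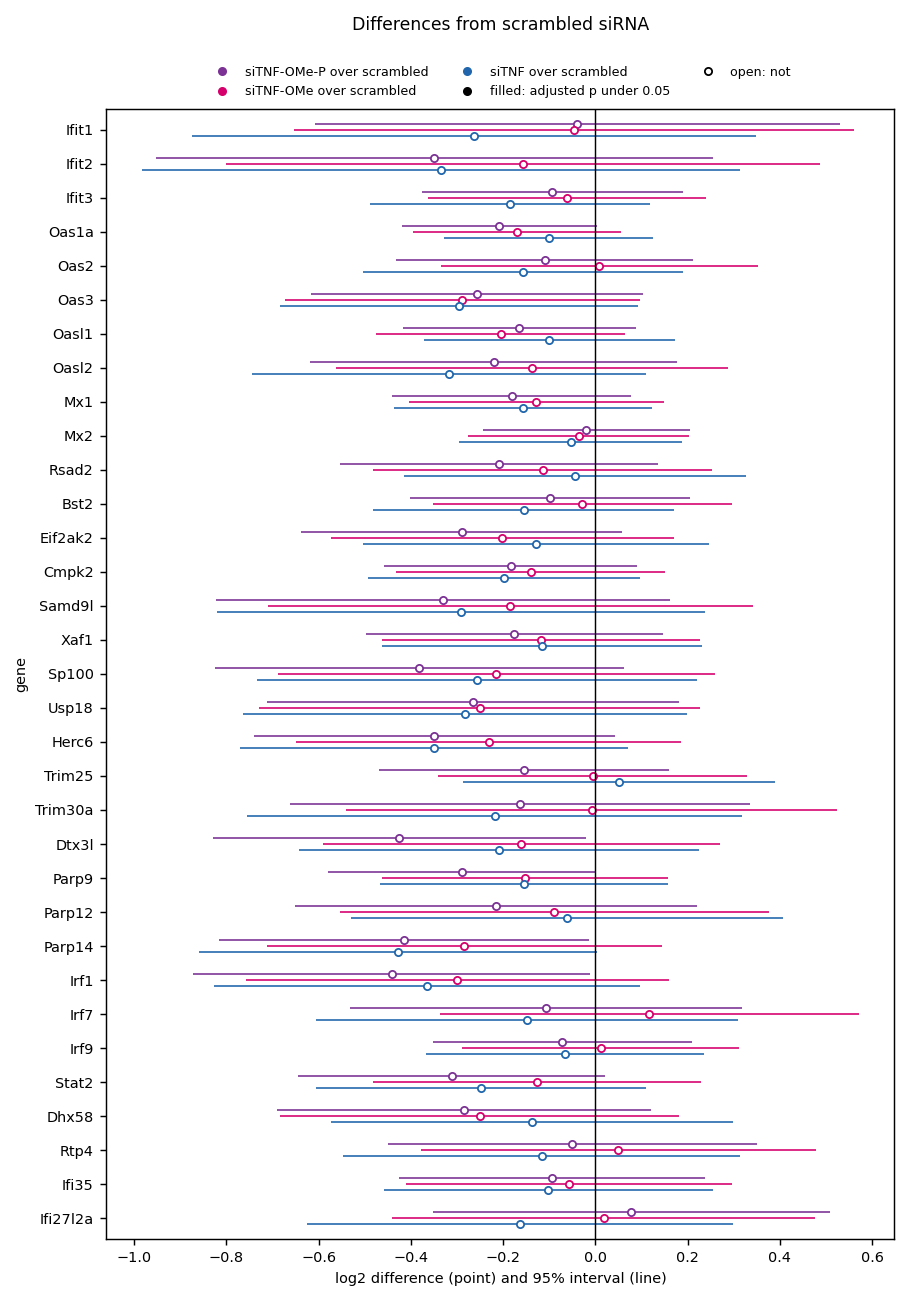
For each gene, points give the log2 difference from scrambled siRNA with its 95% interval for siTNF-OMe-P, siTNF-OMe and siTNF, from top to bottom. All points are open because none passed an adjusted p of 0.05, and most lie left of 0, down to -0.44 for Irf1.

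The genes varied together inside groups. After the group mean was removed from each array, the mean pairwise correlation over the 36 arrays was 0.571 among the 33 genes and 0.0199 among all probe sets, given as a description since the pairs share arrays and batches. It was 0.646 without the 8 narrow arrays. Herc6 had the highest mean correlation with the others (0.72), followed by Dhx58 (0.71), Stat2 (0.706) and Trim30a (0.704). Mx2 (0.0923) and Oas2 (0.0947) had the lowest, and the lowest correlation of any pair of the genes was -0.506. In Control replicates 4 and 8, with array SDs of 1.549 and 1.565, Oas2 read 8.67 and 8.27 and Samd9l 8.20 and 8.47. In Control replicates 1 and 2, with SDs of 1.892 and 1.872, Oas2 read 7.18 and 7.51 and Samd9l 10.04 and 10.09. The part of array spread in the low values of Mx2 and Oas2 was not tested. Ifit2 and Ifit1 had the widest spread inside groups, with SDs of 0.627 and 0.62, and Oas1a the narrowest at 0.201.

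MPO activity was available for each animal, so the genes were also set against it in the 27 siRNA-dosed arrays. With group and both batches in the model, 0 of the 33 genes and 0 of 28853 probe sets (0%) had a slope on log2 MPO activity that passed (limma). Slopes were positive for 31 of the 33. The unadjusted p was under 0.05 for 4 genes: Oas2 at 0.11 ± 0.04 log2 units per doubling of MPO activity (SE), Oas3 at 0.15 ± 0.06, Rsad2 at 0.14 ± 0.06 and Ifit2 at 0.23 ± 0.11. All had a limma adjusted p of 0.98. Fitted within hybridization batches 1 and 2 alone, the median slope was 0.20 and 0.17, against 0.08 in all 27 arrays, with 31 and 33 genes positive, 4 and 23 at an unadjusted p under 0.05 and 0 passing in either. With MPO activity on its linear scale, 22 genes had an unadjusted p under 0.05 and 0 passed. The genes move together (mean pairwise correlation 0.716 in the siRNA-dosed arrays), so these counts are not counts of separate observations. The share of all probe sets at an unadjusted p under 0.05 is not given here, so the counts do not single out these genes.

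Without those terms, Pearson's r between log2 MPO activity and log2 signal was positive for all 33 genes, with a median of 0.381 and a range of 0.0741 to 0.588, where 51.0% of all probe sets had a positive r. In permutation tests 17 genes had an unadjusted p under 0.05 by r and 18 by Spearman's rho, and 0 passed after Benjamini-Hochberg adjustment over all probe sets. The limits given for the slope counts hold for these counts too. For Oas2 r was 0.588 (permutation p = 0.00136, adjusted p = 1.00) and rho 0.644 (permutation p = 0.00048, adjusted p = 0.515). Without the 2 arrays farthest from the median MPO activity, siTNF-OMe-P replicates 5 and 6, the median r was 0.439 and that of Oas2 was 0.715. The relation was uneven over batches and groups. Median r, without group or batch terms, was 0.64 in the 12 arrays of hybridization batch 1 and 0.161 in the 15 of batch 2. By group it was 0.172 in siTNF-OMe-P, 0.645 in siTNF-OMe, -0.0144 in siTNF and 0.857 in scrambled colons, with 6 to 8 arrays each, and the differences between groups were not tested. In 4 dosed arrays MPO activity lay inside the Control range: 0.031, 0.056 and 0.082 U per mg in siTNF-OMe-P replicates 5, 6 and 7 and 0.057 U per mg in siTNF replicate 6. Their gene means of 9.43, 9.30, 9.28 and 9.18 were above those of all Control arrays.

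**Figure D5:**
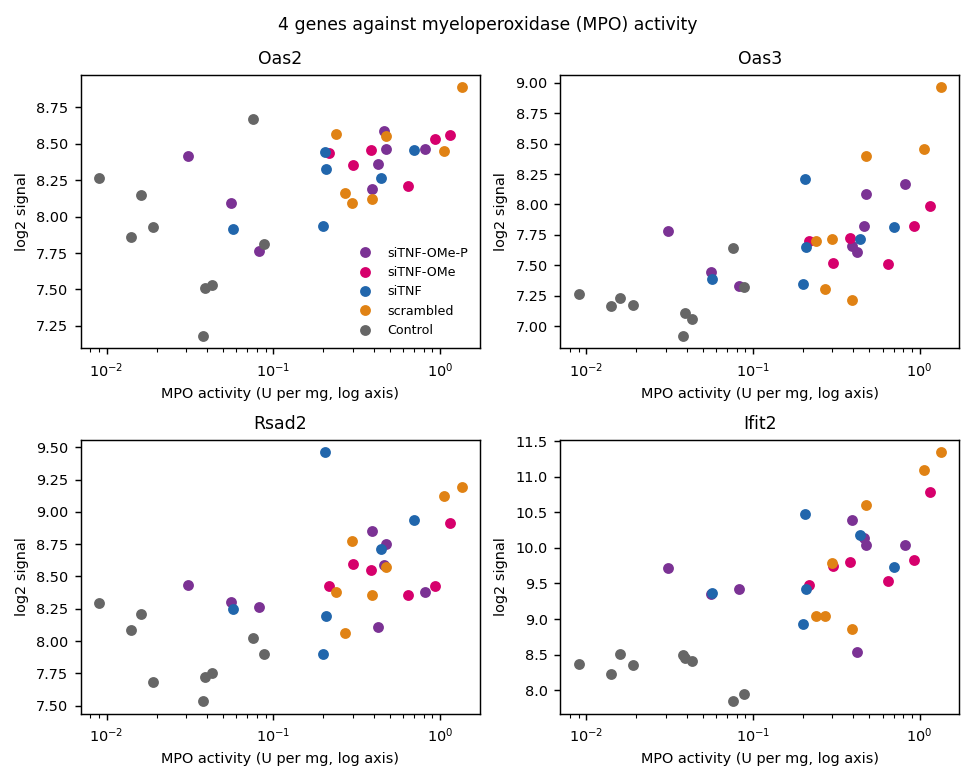
Each panel plots the log2 signal of Oas2, Oas3, Rsad2 or Ifit2 against MPO activity in U per mg on a log axis, with 1 point per array coloured by group. In Ifit2 the Control arrays, at 7.85 to 8.50, lie below the siRNA-dosed arrays at every MPO activity, and the highest signals are those of scrambled arrays at 1.06 and 1.35 U per mg.

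Of 48 further genes of the pathway, 44 had a probe set of their own. In siTNF-OMe-P 12 rose, in siTNF-OMe 13, in siTNF 11 and in scrambled colons 12, and 0 fell in each. The shares of all probe sets called higher were 9.35%, 9.01%, 9.09% and 7.27% in the same order. Among the siRNA groups 0 of the 44 passed. None of the 15 interferon genes passed in any comparison with Control, and Ifnb1 read a median of 6.24 in siTNF-OMe-P, 6.30 in siTNF-OMe, 6.35 in siTNF and 6.42 in scrambled, against 6.45 in Control colons. The receptor chain Ifnar2 rose by 1.15, 1.34, 1.17 and 1.01 in siTNF-OMe-P, siTNF-OMe, siTNF and scrambled. In these groups 2, 3, 2 and 1 of the 6 measured receptor genes rose. The RNA sensors Ifih1 (0.51, 0.61, 0.68 and 0.80), Ddx58 (0.37, 0.44, 0.34 and 0.48) and Tlr7 (0.50, 0.73, 0.72 and 0.50) rose as well, as did the adaptors Myd88 (1.00, 1.07, 0.96 and 0.93) and Sting1 (1.07, 1.23, 0.95 and 0.90). They were picked from 12 measured sensors and adaptors, of which 5, 5, 5 and 6 rose and the others did not pass. The median differences of the 12 were 0.17, 0.32, 0.39 and 0.40. Of the brakes, Socs3 rose by 1.78, 2.12, 2.00 and 1.58, while Socs1 differed by -0.05 to 0.05 and did not pass.

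Markers of other cells were set beside these genes, against the 9.35%, 9.01%, 9.09% and 7.27% of all probe sets called higher in siTNF-OMe-P, siTNF-OMe, siTNF and scrambled colons. Of 6 measured macrophage and monocyte markers, 5 rose in siTNF-OMe-P, 6 in siTNF-OMe, 5 in siTNF and 6 in scrambled colons. Their mean log2 signal was 9.39 to 10.2 in siTNF-OMe-P, 9.77 to 10.0 in siTNF-OMe, 9.52 to 10.1 in siTNF and 9.35 to 10.2 in scrambled, against 8.33 to 9.03 in Control colons. Of 8 neutrophil markers 5, 5, 5 and 3 rose. For the plasmacytoid dendritic cell, a strong source of interferon alpha, 7 listed genes were measured. Irf8, Tcf4 and Clec10a rose in each comparison, but these genes are not confined to that cell. Siglech, its defining receptor, differed by -0.20, -0.23, -0.38 and -0.22 and did not pass. B and plasma cell markers rose in 0 cases and fell in 1, 4, 4 and 4 of 7. T and NK cell markers rose in 2, 2, 1 and 2 of 8, endothelial ones in 3, 3, 4 and 3 of 4, smooth muscle ones in 4 of 4 throughout, and skin-type keratin markers in 3, 4, 0 and 0 of 5. Colon epithelial markers rose in 1, 2, 2 and 2 of 8 and fell in 1, 1, 0 and 0. The part of these cells in the rise of the interferon-stimulated genes was not tested.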

How the data were processed

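Labelled cDNA from 25 ng total RNA of each of 36 mouse colons was hybridized to Affymetrix whole-transcript arrays, per the labels' protocols. The deposited values are log2 signals per probe set, made by the authors with RMA and Partek, per the submitters' processing notes. RMA usually corrects background, normalizes arrays to 1 distribution and summarizes probes. Neither the versions of RMA and Partek nor a genome build is given in the sources used here. The deposited arrays did not share 1 distribution: their SDs ran from 1.549 to 1.892 and their medians from 7.976 to 8.252. The first principal component, the main axis of variation between arrays, held 48.8% of the variance. Its correlation with array SD was -0.969. The platform annotation ties 21789 of the 28853 probe sets to a single gene and 1621 to more than 1, and leaves 5443 unnamed. A probe set naming several genes was not used for a gene.

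Differences were fitted with limma 3.58.1 (R 4.3.3) over all probe sets and all 36 arrays, with group and the labelled amplification (3) and hybridization (2) batches as terms, and eBayes with a mean-variance trend. P-values are two-sided and Benjamini-Hochberg adjusted over all probe sets within each of 11 comparisons, with a threshold of 0.05. Slopes on log2 MPO activity were fitted in the 27 siRNA-dosed arrays, and Pearson and Spearman correlations were given permutation p-values from 100000 resamples (NumPy 2.4.6, SciPy 1.17.1). The fits were tested on simulated data. P-values measure the spread between arrays, which the labels call replicates.

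The genes and the further lists were chosen with earlier results of these data known. Values by group are given for the 2 genes of each role group with the smallest p for scrambled over Control and for genes not called in that comparison. Genes called among siRNA-dosed groups or on MPO activity would have been added, but there were 0 of them. Other genes were named after their values were seen. Replicate numbers were not used as a block, since no label says that a number marks a shared litter or day. Alternatives covered batch terms, single batches, array spread, normalization, filters and leaving out each array.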

Additional observations from a re-analysis of the deposited data

Results flagged for a closer look

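In 165 tests of a gene in a group of 6 to 9 arrays, 12 had a highest or lowest array set apart from the others by Dixon's criterion, which chance alone meets in about 1 of 20 groups, or 8.2 here. They concern 9 genes and 4 arrays. Because the genes move together within groups, the 165 tests are not independent, and 12 against 8.2 is only a rough comparison.

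In siTNF-OMe-P replicate 2 the lowest log2 signal stood apart for Eif2ak2 (7.72, the next array 8.23), Xaf1 (8.07, next 8.58), Sp100 (8.32, next 9.07), Parp12 (10.07, next 10.54) and Rtp4 (10.06, next 10.88). This array also had the lowest mean of the 33 genes among the siRNA-dosed arrays, and its SD over probe sets was 1.69. In siTNF-OMe replicate 1 the highest signal stood apart for Ifit2 (10.78, next 9.83), Mx1 (7.45, next 6.95) and Usp18 (9.20, next 8.51). That animal had the highest MPO activity of its group, 1.16 U per mg.

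In siTNF replicate 4 the highest signal stood apart for Mx1 (7.53, next 6.93), Xaf1 (9.63, next 8.66) and Usp18 (9.53, next 8.60). Its MPO activity was 0.204 U per mg, close to the group median of 0.206. In siTNF replicate 3 the lowest signal stood apart for Irf1 (10.05, next 10.99), with an SD over probe sets of 1.69 for that array. The part of array spread and of MPO activity in these values was not tested.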

How the results depend on the processing

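Precision is limited by 6 to 9 arrays a group, and no measure of signal over background was used here. The number of interferon-stimulated genes called higher than in Control stayed within 1.5 times the reported one under other batch terms, normalizations, filters, array weights and array-spread settings, and 0 were called lower. The background moved more. Over all probe sets, those called higher than in Control numbered 2698 for siTNF-OMe-P, 2599 for siTNF-OMe, 2624 for siTNF and 2099 for scrambled, against 7532, 8618, 2487 and 8085 without the 8 narrow arrays, 7218, 7042, 3166 and 9095 with array weights, 4770, 4125, 3817 and 3726 with array SD as a covariate, and 1809, 1804, 901 and 1168 with the fit on the groups compared alone. Lower calls outnumbered higher ones for siTNF without the narrow arrays (3534) and with array weights (4758). The number of genes changed in single batches, which hold fewer arrays: amplification batch 1 holds 1 scrambled and 1 siTNF-OMe array, each assumed to vary like the other groups. For scrambled it was 17 and 14 within hybridization batches 1 and 2, and 8 and 0 within amplification batches 1 and 3 (limma; 12 at an unadjusted p under 0.05 in batch 3). For siTNF it was 2 within hybridization batch 1 and 3 and 1 within amplification batches 1 and 3. For siTNF-OMe it was 8 and 12 within the hybridization batches and 8, 13 and 3 within the amplification batches. For siTNF-OMe-P it was 8 within hybridization batch 1 and 9 and 3 within amplification batches 1 and 3, where 15.9% and 0.149% of all probe sets were called higher. In the other batches named that share was 0.114% to 6.05%. Leaving out 1 array at a time gave 18 to 26 for siTNF-OMe-P, 18 to 27 for siTNF-OMe, 15 to 26 for siTNF and 27 to 31 for scrambled, and the 15 arose without siTNF replicate 4. Between siRNA groups and on MPO activity the number was 0 under each alternative run.

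With the replicate number as a block the counts were 20 for siTNF-OMe-P, 21 for siTNF-OMe, 20 for siTNF and 29 for scrambled over Control, and 0 between siRNA groups. Arrays of different groups with the same number had a mean correlation of 0.0789 (64 pairs, from -0.697 to 0.868) and 5 of 36 arrays correlated best with their own number, so the numbers were not treated as pairs.

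Single genes turned direction as follows, and the cause was not tested. Within amplification batch 1, siTNF-OMe-P over Control was -0.150 for Dtx3l, -0.592 for Eif2ak2, -0.034 for Ifi35, -0.0845 for Irf1, -0.190 for Parp12, -0.340 for Samd9l, -0.495 for Sp100 and -0.250 for Trim25. There, siTNF-OMe over Control was -0.160 for Eif2ak2 and -0.0675 for Trim25, and siTNF over Control was -0.263 for Eif2ak2 and -0.0304 for Trim25. Within amplification batch 3, siTNF over Control was -0.046 for Cmpk2 and -0.095 for Mx2, and scrambled over Control was -0.0866 for Mx2. There, siTNF-OMe-P over scrambled was 0.206 for Dtx3l, 0.0959 for Irf1 and 0.188 for Parp14, and the mean of the TNF siRNA groups over scrambled was 0.192 for Irf1 and 0.145 for Parp14. Within hybridization batch 1, Eif2ak2 was -0.013 for siTNF-OMe and -0.0778 for siTNF over Control, and within batch 2, Mx2 was -0.0516 for siTNF-OMe. Without the 8 narrow arrays, Eif2ak2 was -0.064 for siTNF-OMe-P and -0.0658 for siTNF-OMe over Control and Trim25 was -0.0123 for siTNF-OMe-P. With array weights, Eif2ak2 was -0.056 for siTNF-OMe-P and -0.00368 for siTNF-OMe over Control.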
